A study of Homo sapiens with 6 samples.

Results

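The kinesin genes are described here in HT-1080 cells, a human fibrosarcoma line, with and without the G-quadruplex ligand PhenDC3. Members were the genes of the deposited expression table whose symbol is KIF, a number and at most a letter and a digit, 35 in all, to which KIFC1 was added. This gave 36 of the 22925 genes listed. They were divided by a fixed list into 12 mitotic kinesins (KIF2C, KIF4A, KIF11, KIF14, KIF15, KIF18A, KIF18B, KIF20A, KIF20B, KIF22, KIF23 and KIFC1) and 24 other kinesins, most of which carry cargo along microtubules. The other kinesins include KIF4B, a copy of KIF4A, and KIF2A, which also acts at spindle poles. The rule uses names and this list only.

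One group of 3 libraries came from cells given PhenDC3 at 20 μM, dissolved in 1% DMSO, and the other group of 3 from cells given the same 1% DMSO without it, both for 48 h. Both groups therefore carry the solvent, both are the same line without any stated genetic change, and 1 dose and 1 time were measured. Poly(A) RNA was sequenced from a stranded mRNA kit. The values are read counts per gene divided by a size factor per library, called normalized counts below. The labels do not state whether replicates were separate cultures. The p-values therefore rest on the variation among the libraries, and this can be technical.

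Kinesins are motor proteins that use ATP to walk along microtubules or to take them apart. In dividing cells a set of them builds the spindle, moves chromosomes and splits the cell, and the RNA of most of these motors peaks late in the cell cycle. Others work throughout the cycle and carry organelles, vesicles, RNA and ciliary parts, mostly outward from the cell centre. Promoters of genes expressed in late cycle often pair a CCAAT box, read by NF-Y, with a downstream element called the cell cycle genes homology region (CHR), read by the MuvB-containing complexes. PhenDC3 binds G-quadruplexes, folded structures that can form where several runs of G lie close together.

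The recovered reads summed to between 12574952 and 14292987 per DMSO library and between 7371056 and 9386691 per PhenDC3 library. The median kinesin had 624.5 to 676.5 reads in the DMSO libraries and 261.5 to 310.0 in the PhenDC3 libraries. Mitochondrial genes took 3.72% to 3.96% of reads in DMSO and 15.4% to 15.5% in PhenDC3, and their part in the kinesin values was not tested beyond a rescaling to nuclear reads, under which every kinesin kept its call. DMSO replicate 3 stood further from the other DMSO libraries than they did from each other (chi-square per degree of freedom of 6.47 and 6.99 against 1.69). Fits without it are given below for KIF5B and KIF21A, and its part in the overlap of KIF27 is stated. The mesenchymal marker VIM was abundant in both groups, with means of 25153 and 13620.3 normalized counts. The summed level of 6 mesenchymal markers was 33815 to 37177 in DMSO and 19861 to 20065 in PhenDC3, none being at 0. VIM and FN1 (means of 8465 and 5265) made up most of that sum. THY1 was too low to be tested, at means of 1.52 and 5.43. Of the 5 mesenchymal markers tested, 3 fell and COL1A1 rose, to a ratio of 1.54, by the test described below. Over all genes tested, that test called 30.4% lower and 29.2% higher. The summed level of the 4 epithelial markers in the table was 2279 to 2801 in DMSO and 2438 to 2684 in PhenDC3, which overlap, while EPCAM, CDH1, PECAM1, PTPRC and CD3E were not analysed here. Among the epithelial markers, KRT8 had means of 1190 normalized counts in DMSO and 1366 in PhenDC3, and KRT18 1257 and 1125. ELF3 had a mean of 0.259 normalized counts in DMSO and 10.6 in PhenDC3. The leukocyte marker CD68 had 5.98 and 15.4, and the endothelial marker EGFL7 257 and 280. The part of these changes in the kinesin values was not tested.

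All 12 mitotic kinesins fell in PhenDC3, and in every one of them each PhenDC3 library lay below each DMSO library. KIF20A, which works at the central spindle in cytokinesis, fell furthest, to 0.286 of its DMSO level. KIF15, KIF22, KIFC1, KIF11 and KIF18A also fell below 0.5 of their DMSO level, and KIF18B, a motor of microtubule plus ends, fell least, to 0.648. The median over the 12 was a log2 fold change of -0.95, with a range of -1.80 to -0.63, and the median over all genes tested was -0.02. By limma's moderated test on log2(normalized count + 1), with Benjamini-Hochberg adjustment over 16482 genes and a threshold of 0.05, 30.4% of all genes tested were called lower. PhenDC3 libraries lay below all DMSO libraries in 32.6% of all genes. In the authors' deposited table, on its own adjusted p under 0.05, the 12 mitotic kinesins were all lower, as were 19.3% of the 21593 genes with such a value. A ratio of 0.5 or less was reached by 6 of the 12 mitotic kinesins and by 6.84% of all genes. In bulk RNA, fewer dividing cells and less RNA per cell cannot be told apart.

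**Figure D1:**
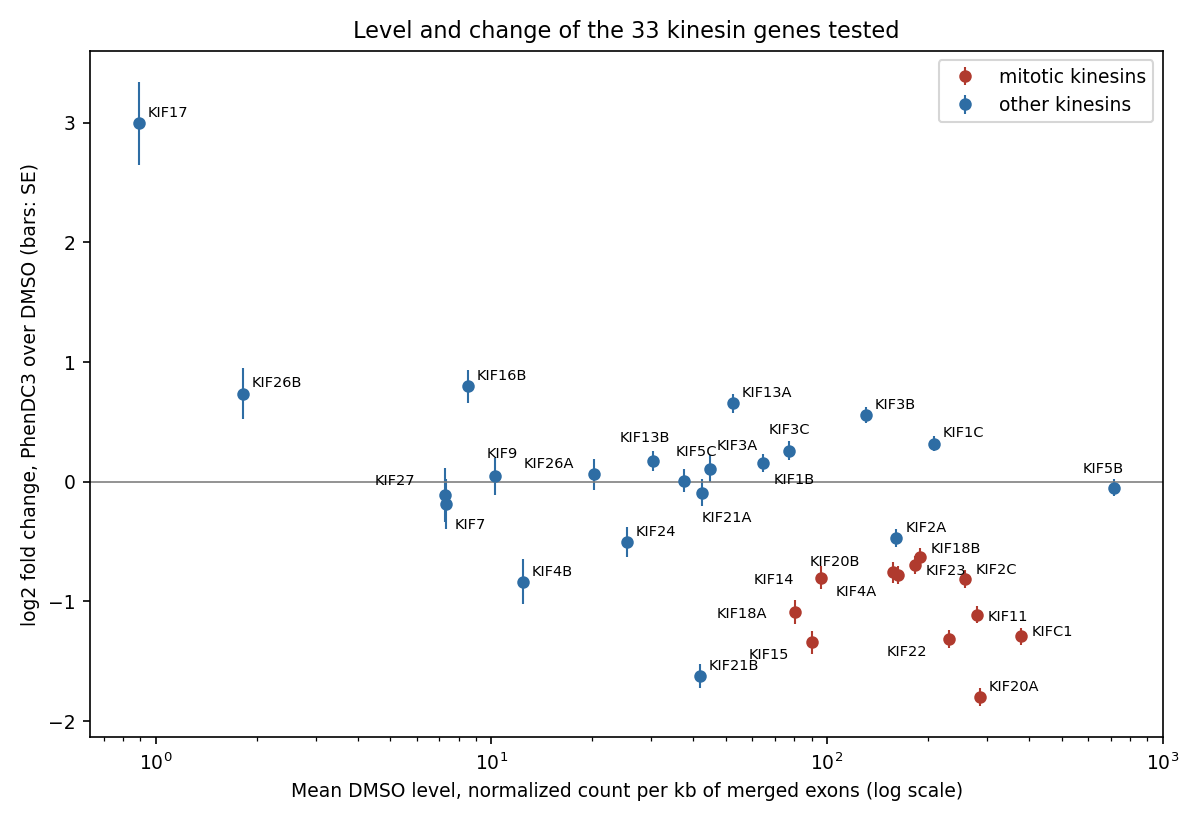
Each of the 33 points is a tested kinesin gene, plotted by its mean level in DMSO (normalized counts per kilobase of exon, log axis) and its log2 fold change of PhenDC3 over DMSO, with the standard error from limma. The 12 mitotic kinesins lie between -1.80 and -0.63, and the other kinesins spread on both sides of 0.

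Because the 12 mitotic kinesins moved together, their promoters were read from RefSeq windows on GRCh38.p14 that run from 250 bases before the start to 50 bases after it. The motifs searched, on both strands, were the CCAAT box, which reads ATTGG on the other strand, the CHR form TTTGAA, which reads TTCAAA there, and the forms TTCGAA and TTTAAA, which read the same on both. TTTAAA is counted apart, as a variant of the CHR. None of these motifs can be counted as another, although neighbouring matches may overlap. The 100 bases before the start are printed 5′ to 3′ on the gene's strand for 7 mitotic kinesins, chosen because they show the arrangement or its exceptions, with the matches in capitals.
KIF11, chr10:92593030-92593129, plus strand: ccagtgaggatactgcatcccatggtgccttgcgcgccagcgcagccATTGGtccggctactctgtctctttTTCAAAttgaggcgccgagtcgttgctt
KIF18A, chr11:28108157-28108256, minus strand: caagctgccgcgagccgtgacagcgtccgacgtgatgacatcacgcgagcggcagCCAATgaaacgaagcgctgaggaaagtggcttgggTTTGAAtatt
KIF15, chr3:44761694-44761793, plus strand: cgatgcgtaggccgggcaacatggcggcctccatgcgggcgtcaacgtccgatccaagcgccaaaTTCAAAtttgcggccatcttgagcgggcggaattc
KIF23, chr15:69414249-69414348, plus strand: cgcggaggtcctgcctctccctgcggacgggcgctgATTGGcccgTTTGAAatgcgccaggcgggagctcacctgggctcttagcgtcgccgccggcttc
KIF4A, chrX:70290004-70290103, plus strand: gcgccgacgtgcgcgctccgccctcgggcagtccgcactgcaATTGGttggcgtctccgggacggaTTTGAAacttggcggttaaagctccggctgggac
KIF22, chr16:29790651-29790750, plus strand: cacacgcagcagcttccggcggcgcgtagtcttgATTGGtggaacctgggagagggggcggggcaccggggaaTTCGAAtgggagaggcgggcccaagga
KIF20A, chr5:138179012-138179111, plus strand: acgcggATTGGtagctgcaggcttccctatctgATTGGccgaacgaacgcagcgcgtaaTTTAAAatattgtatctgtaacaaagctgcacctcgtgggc

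KIF11, KIF18A, KIF23, KIF4A and KIF22 carry a CCAAT box, in either orientation, and then a CHR motif nearer the start. The distance between the first bases of the 2 motifs was 25 in KIF11, 35 in KIF18A, 9 in KIF23, 24 in KIF4A and 39 in KIF22. KIF15 has the CHR motif without a CCAAT box, and KIF20A has 2 CCAAT boxes followed by the variant TTTAAA. In the other mitotic kinesins the motif lies at or after the start, and 30 bases around it are printed in the same way to show that position, with KIF2C for its variant.
KIF14, chr1:200620733-200620762, minus strand: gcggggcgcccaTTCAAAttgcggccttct
KIFC1, chr6:33391815-33391844, plus strand: tggccgttggaaTTCAAAagtggcgggtgt
KIF18B, chr17:44947754-44947783, minus strand: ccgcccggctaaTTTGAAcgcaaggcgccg
KIF20B, chr10:89701602-89701631, plus strand: tggccgccattgTTTGAATTTGAAaacggt
KIF2C, chr1:44739822-44739851, plus strand: ttgcgcgcgggaTTTAAActgcggcggttt

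Of the 12 mitotic kinesins, 10 held TTTGAA or TTCGAA in a window, and the remaining pair, KIF2C and KIF20A, held TTTAAA. Among the 19 other kinesins with a window, TTTGAA or TTCGAA was in 3 (KIF4B, KIF24 and KIF5B). The share over all 27305 genes with a window was 19.5%, and over all 35116 windows it was 16.4%. CCAAT was in 10 of 12 mitotic kinesins, in 7 of 19 other kinesins and in 39.7% of all genes. Both motifs were in 9 of 12 mitotic kinesins, in 3 of 19 other kinesins and in 7.85% of all genes. This count takes no account of order or spacing. In KIF5B the TTTGAA, at -140 from the start, comes before the CCAAT box at -59. In KIF20B the CHR motifs lie 122 and 128 bases after the nearest CCAAT box. The variant TTTAAA was in 4 of 12 mitotic kinesins and in 14.5% of all genes. A match is a run of letters and does not show that a factor binds there.

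**Figure D2:**
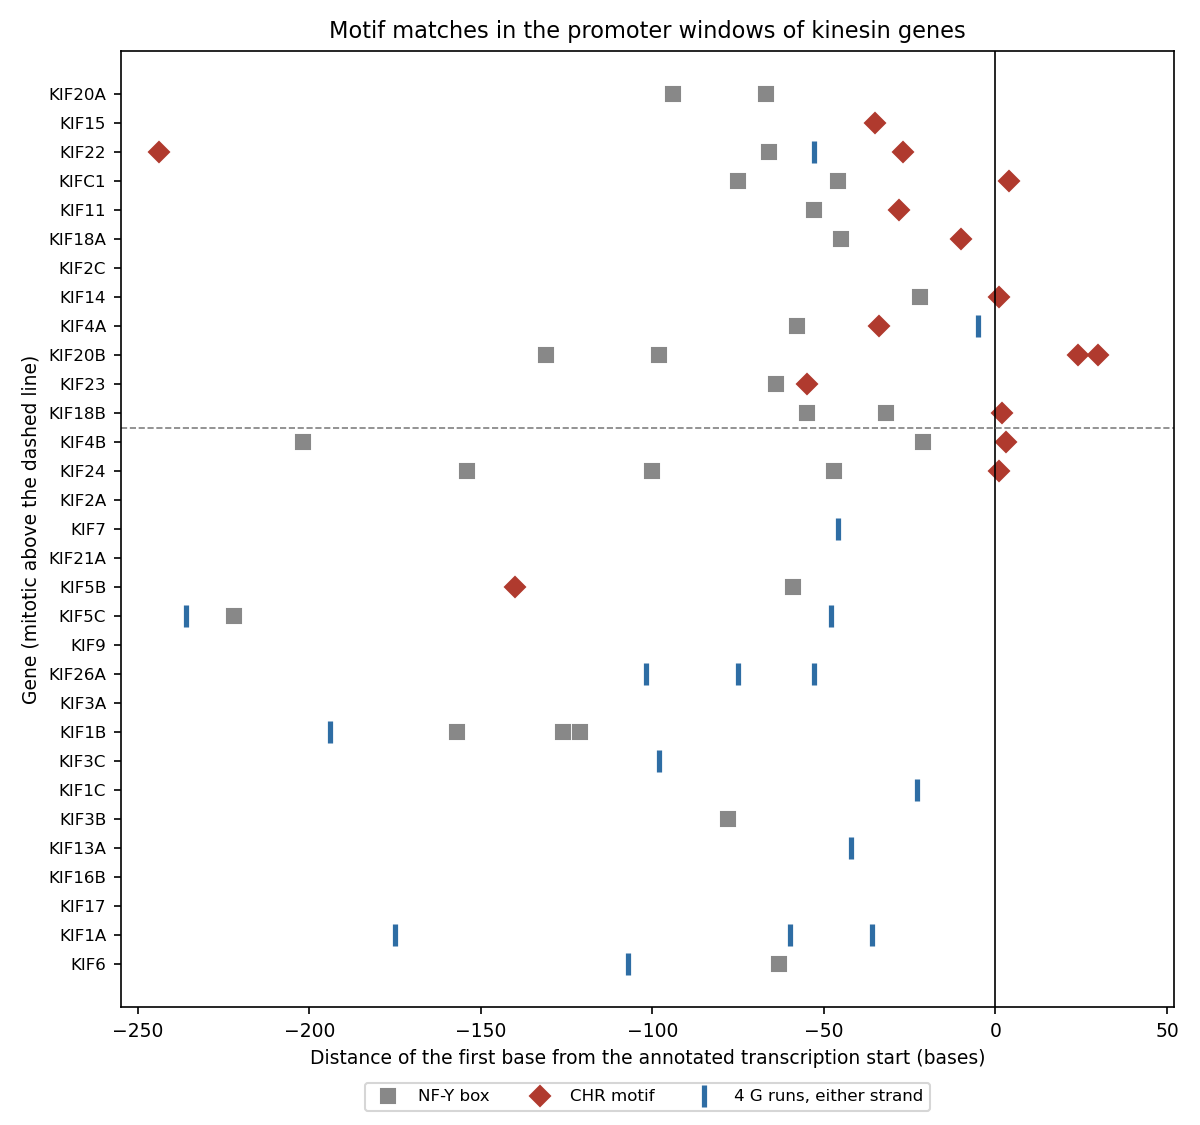
Positions of the searched motifs in the RefSeq promoter windows of the kinesins, by distance in bases from the gene start, with mitotic kinesins above the dashed line and the other kinesins below it. The variant TTTAAA is not drawn. CHR motifs are marked in 10 of the 12 mitotic kinesins and in 3 of the 19 other kinesins.

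Among the motors that build and hold the bipolar spindle, KIF11 (ENSG00000138160, chromosome 10), the kinesin-5 that pushes spindle poles apart, had 1355, 1451 and 1276 normalized counts in DMSO and 607, 665 and 614 in PhenDC3. Every PhenDC3 library was well below the lowest DMSO library. The mean was 1360.4 ± 87.6 in DMSO and 629 ± 31.9 in PhenDC3 (SD, n = 3 in each group, as for all means below), a ratio of 0.462. By limma the log2 fold change was -1.11 (SE 0.07, adjusted p = 6.96e-11).

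KIF15, a kinesin-12 that can share the work of KIF11, had 479, 483 and 465 normalized counts in DMSO and 182, 208 and 172 in PhenDC3. The groups did not overlap, and the ratio of 0.394 was the second smallest of the mitotic kinesins (log2 fold change -1.34 with SE 0.09, limma adjusted p = 1.73e-10). KIFC1, a minus-end motor that bundles spindle poles, had 1238, 1217 and 1348 in DMSO and 504, 502 and 547 in PhenDC3. Its ratio was 0.408, and the groups did not overlap (log2 fold change -1.29 with SE 0.07, limma adjusted p = 7.6e-12).

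Motors on chromosome arms come next. KIF22, which binds DNA and helps push chromosomes outward, had 949, 975 and 1064 normalized counts in DMSO and 385, 393 and 419.9 in PhenDC3. The ratio was 0.401 and the groups did not overlap (log2 fold change -1.32 with SE 0.08, limma adjusted p = 1.11e-11). KIF4A, a chromosome-bound motor that also works at the central spindle, had 734, 767 and 716 in DMSO and 405, 464 and 422 in PhenDC3. Its fall was smaller, to a ratio of 0.583 (log2 fold change -0.78 with SE 0.08, limma adjusted p = 3.93e-08).

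At kinetochores and microtubule ends, KIF18A, which dampens chromosome movements, had 388, 407 and 334 normalized counts in DMSO and 185, 179 and 164 in PhenDC3. DMSO replicate 3 was the lowest of its group and still more than any PhenDC3 library (ratio 0.467, log2 fold change -1.09 with SE 0.10, limma adjusted p = 1.07e-08). KIF18B, its close relative, had 907, 871 and 873 in DMSO and 620.1, 554 and 543 in PhenDC3, the mildest fall of the 12 (ratio 0.648, log2 fold change -0.63 with SE 0.07, limma adjusted p = 4.09e-07). The ratio of KIF18A to KIF18B within a library was 0.427, 0.467 and 0.382 in DMSO and 0.298, 0.323 and 0.302 in PhenDC3, so the relatives did not move equally. KIF2C, which takes microtubules apart at kinetochores, had 908, 920.2 and 996 in DMSO and 508, 528 and 576 in PhenDC3. Its libraries did not overlap either (ratio 0.571, log2 fold change -0.81 with SE 0.08, limma adjusted p = 1.41e-08).

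The kinesins of cytokinesis included the most and nearly the least changed members. KIF20A had 1085, 1173 and 1137 normalized counts in DMSO and 322, 338 and 312 in PhenDC3. The spread within each group was small beside the gap (1132 ± 44.3 against 324 ± 12.97, log2 fold change -1.80 with SE 0.07, limma adjusted p = 6.68e-14). KIF23, the motor of the centralspindlin complex, had 1168, 1294 and 1158 in DMSO and 677, 796 and 762 in PhenDC3. The groups did not overlap, and its fall was smaller than that of KIF20A (ratio 0.618, log2 fold change -0.70 with SE 0.08, limma adjusted p = 1.39e-07).

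The library-by-library ratio of KIF20A to KIF23 was 0.929, 0.907 and 0.982 in DMSO and 0.476, 0.424 and 0.410 in PhenDC3. The ratio of KIF20A to KIF20B was 1.01, 1.01 and 1.15 in DMSO and 0.574, 0.480 and 0.483 in PhenDC3. Neither ratio overlapped between the groups, so KIF20A fell more than its kinesin-6 relatives. KIF20B, which acts late in cytokinesis, had 1075, 1162 and 989 normalized counts in DMSO and 561, 704 and 647 in PhenDC3 (ratio 0.593, log2 fold change -0.76 with SE 0.09, limma adjusted p = 2.04e-07). KIF14, which brings citron kinase to the midbody, had 739, 768 and 585 in DMSO and 376, 399 and 416 in PhenDC3. DMSO replicate 3 was again its lowest DMSO library and did not reach the PhenDC3 range (ratio 0.569, log2 fold change -0.80 with SE 0.09, limma adjusted p = 3.52e-07).

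**Figure D3:**
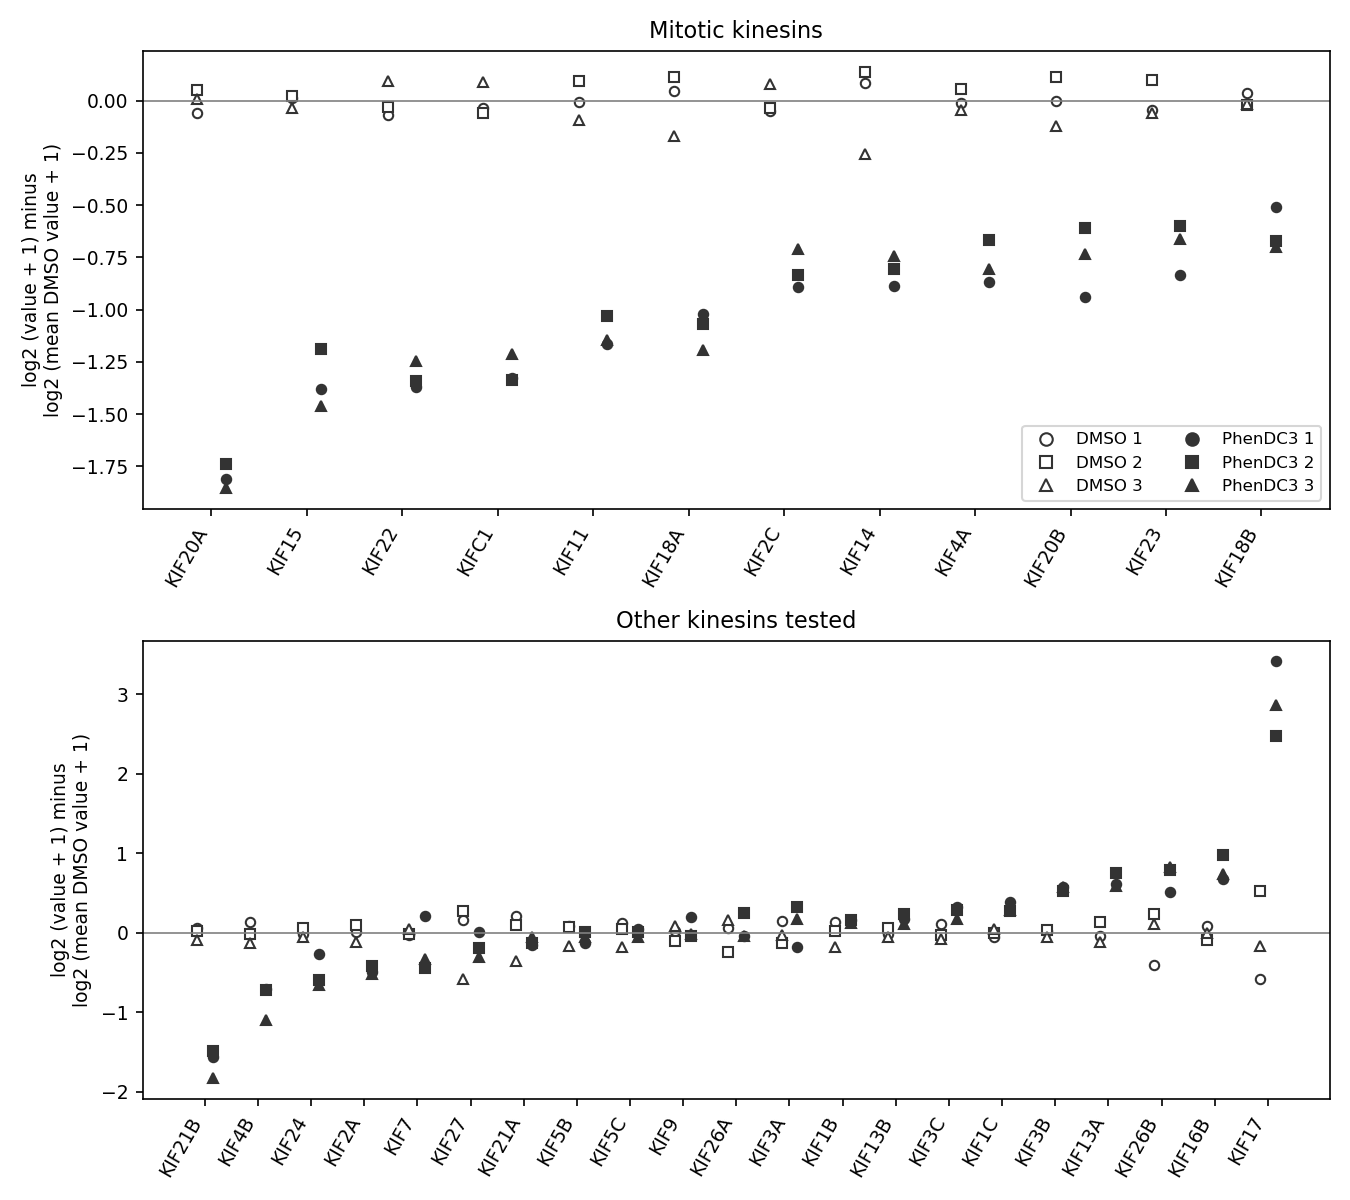
Each of the 33 tested kinesins in each of the 6 libraries, 1 symbol per library, as log2(normalized count + 1) minus log2(mean DMSO count + 1), with mitotic kinesins in the upper panel and other kinesins in the lower one. For each mitotic kinesin the 3 filled PhenDC3 symbols lie below the 3 open DMSO symbols.

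Levels per kilobase used the merged exons of all annotated transcripts, which allows only a rough comparison between genes. Merged exons came to 4312 bases in KIF22 and 6576 in KIF23, and the longest coding transcripts to 2505 and 3723. The order of genes therefore depends on the length used. By merged exons, KIFC1 was the most abundant mitotic kinesin in DMSO at 379 normalized counts, ahead of KIF20A at 286 and KIF11 at 279.9. KIF18A at 80.6, KIF15 at 90.0 and KIF14 at 95.8 were the lowest. In PhenDC3 KIFC1 was still the highest by this measure at 155, and KIF20A stood at 81.9. Summed per kilobase, the mitotic kinesins came to 2359, 2444 and 2379 in the DMSO libraries and 1119, 1186 and 1169 in the PhenDC3 libraries. The other kinesins came to 1767, 1759 and 1578 in DMSO and 1756, 1818 and 1749.8 in PhenDC3, which overlap. The mitotic share of the per-kilobase sum was 58.5% ± 1.502 in DMSO and 39.5% ± 0.569 in PhenDC3. All kinesins together made up 0.238% ± 0.0102 of all normalized counts in DMSO and 0.169% ± 0.00473 in PhenDC3. That total includes the mitochondrial genes, whose share of reads was higher in PhenDC3, and their part in this fall was not tested. The summed normalized count of all kinesins was 23440.5 ± 957 in DMSO and 18579 ± 423 in PhenDC3.

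**Figure D4:**
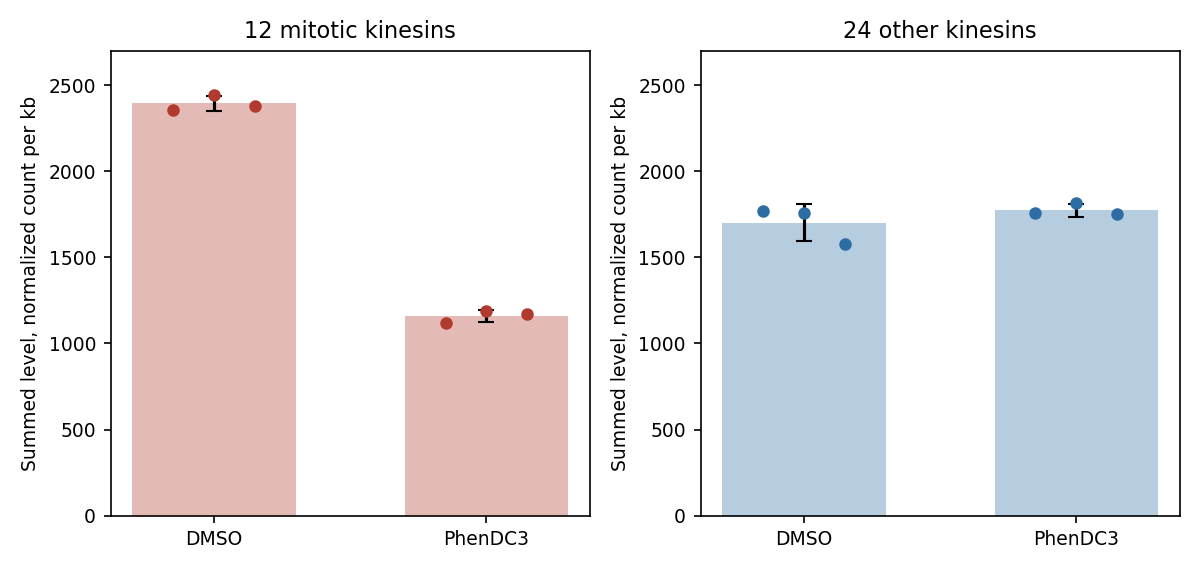
Summed level of mitotic and other kinesins in each library (normalized counts per kilobase of exon), with 1 point per library, bars at the group mean and error bars of 1 SD. The mitotic sum is 2359 to 2444 in DMSO and 1119 to 1186 in PhenDC3, and the sum of the others overlaps between the groups.

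The 24 other kinesins did not move as a block. Of the 21 that passed the filter of a mean of 5 normalized counts, 7 were called higher (KIF17 among them, described below), 4 lower and 10 in neither direction, while 29.2% of all genes were called higher. Their median log2 fold change was 0.06. PhenDC3 libraries lay above all DMSO libraries in 8 of the 21 and below them in 4, against 31.5% and 32.6% of all genes. With both directions counted, 11 of these 21 were called and 12 had groups apart, against 59.6% and 64.1% of all genes tested. The authors' deposited table had 6 of them higher, against 19.7% of all genes.

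KIF21B, a kinesin-4 that limits microtubule growth and is known mainly from neurons and lymphocytes, fell the most of the other kinesins. It had 533, 519.6 and 478 normalized counts in DMSO and 172, 182 and 143 in PhenDC3, with no overlap (ratio 0.324, log2 fold change -1.62 with SE 0.10, limma adjusted p = 2.96e-11). Its relative KIF21A had 495, 457 and 335 in DMSO and 385, 393 and 415 in PhenDC3, within the DMSO range. The ratio of KIF21B to KIF21A was 1.08, 1.14 and 1.43 in DMSO and 0.446, 0.462 and 0.345 in PhenDC3.

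Of the remaining falls, KIF2A, a microtubule depolymerase of spindle poles and of neurons, had 768, 819 and 706 normalized counts in DMSO and 543, 573 and 535 in PhenDC3. Those groups were separate, and the change was moderate (ratio 0.720, log2 fold change -0.47 with SE 0.08, limma adjusted p = 2.4e-05). KIF2A shares 8.97% of its exon bases with IPO11 on the same strand, whose part was not tested. KIF24, which restrains cilium formation, had 154, 162 and 150.3 in DMSO and 129, 103 and 98.4 in PhenDC3 (ratio 0.707, log2 fold change -0.51 with SE 0.12, limma adjusted p = 0.00161).

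KIF4B, an intronless copy of KIF4A, had 59.9, 54.1 and 49.6 normalized counts in DMSO and 33.1, 32.8 and 24.9 in PhenDC3. The lowest DMSO library was above the highest PhenDC3 library (ratio 0.555, log2 fold change -0.84 with SE 0.19, limma adjusted p = 0.00072). KIF4B equalled 8.17%, 7.06% and 6.94% of KIF4A in DMSO and 8.19%, 7.05% and 5.90% in PhenDC3, which overlap. It shares 606 of its 4329 windows of 50 bases with a KIF4A transcript, so reads could be split between the genes and its value is uncertain. Of the 4 other kinesins called lower, 3 have a promoter window, and 2 of these (KIF4B and KIF24) hold a CHR motif. KIF2A has a window without one, and KIF21B, the largest fall, has no window. A CHR motif was in 18.9% of all genes called lower, and with 3 genes the count is only a description. The motifs of KIF4B and KIF24 are printed for comparison with the mitotic set. In KIF4B the bases from the motif onward match those of KIF4A above, so this copy is not a separate case.
KIF4B, chr5:155013746-155013775, plus strand: ctctgggagggaTTTGAAacttggcggtta
KIF24, chr9:34329250-34329279, minus strand: acagcgcgggcgTTCGAActggcgcttggc

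Among the kinesins tested, the largest rise was that of KIF17, a kinesin-2 homodimer of dendrites and cilia. It had 2.33, 6.19 and 3.45 normalized counts in DMSO and 52.1, 26.8 and 35.4 in PhenDC3. These rest on 16 reads in all DMSO libraries and 89 in all PhenDC3 libraries, so the ratio of 9.55 is imprecise. Its DMSO mean of 3.99 is under the filter, which it passed only through the PhenDC3 libraries, so its call (log2 fold change 2.99 with SE 0.35, limma adjusted p = 3.05e-07) followed in part from the filter and is given as a description. KIF3B, the kinesin-2 subunit that pairs with KIF3A in cilia and in organelle transport, had 809, 816 and 769 in DMSO and 1191, 1149 and 1185 in PhenDC3, a ratio of 1.47 (log2 fold change 0.56 with SE 0.07, limma adjusted p = 4.55e-07). Its partner KIF3A had 342, 281 and 302 in DMSO and 272, 386 and 348 in PhenDC3, which overlap, and it was not called (log2 fold change 0.11, SE 0.11, adjusted p = 0.422, limma). The other KIF3A partner, KIF3C, rose to 1.20 of its DMSO level (limma adjusted p = 0.00846).

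Among the kinesin-3 motors, KIF13A, which moves endosomes and melanosome cargo, had 567, 643 and 539.9 normalized counts in DMSO and 894, 983 and 875 in PhenDC3. The groups did not overlap (ratio 1.57, log2 fold change 0.65 with SE 0.08, limma adjusted p = 6.09e-07). KIF16B, which carries early endosomes, had 70.0, 61.9 and 65.5 in DMSO and 105, 131 and 110.2 in PhenDC3 (ratio 1.76, log2 fold change 0.80 with SE 0.14, limma adjusted p = 4.87e-05). KIF1C, an mRNA and integrin carrier of podosomes and cell tails, had 1724, 1787 and 1853 in DMSO and 2346, 2169 and 2171 in PhenDC3. Its rise to a ratio of 1.25 was small and exceeded the spread (log2 fold change 0.32 with SE 0.06, limma adjusted p = 0.000203). KIF26B, a kinesin-11 linked to cell adhesion, had 19.5, 30.9 and 28.3 in DMSO and 37.9, 46.1 and 47.2 in PhenDC3. Its call (ratio 1.67, log2 fold change 0.74 with SE 0.21, limma adjusted p = 0.00581) was lost with DESeq2, where the adjusted p was 0.0521.

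The 100 bases before the start of 3 of these risen kinesins are printed on the gene's strand, beside the mitotic promoters above. KIF17 is among them although its call followed in part from the filter. The single capital run marks CCAAT, and no CHR motif occurs in these bases.
KIF3B, chr20:32277551-32277650, plus strand: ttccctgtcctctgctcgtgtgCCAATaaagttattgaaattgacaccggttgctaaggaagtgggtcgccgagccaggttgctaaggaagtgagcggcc
KIF16B, chr20:16573449-16573548, minus strand: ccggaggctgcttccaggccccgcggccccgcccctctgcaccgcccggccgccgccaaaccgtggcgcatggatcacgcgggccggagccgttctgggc
KIF17, chr1:20718008-20718107, minus strand: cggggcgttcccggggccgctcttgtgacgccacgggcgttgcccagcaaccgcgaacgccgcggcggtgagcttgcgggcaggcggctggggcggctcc

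Of the 6 kinesins called higher that have a window, KIF17 among them, none held TTTGAA or TTCGAA. KIF17 passed the filter only through its PhenDC3 libraries, so its place in these counts follows in part from the filter. These motifs were in 13.5% of all genes called higher and 15.7% of all genes tested, so with 6 genes an absence is near the general share. A second motif was searched because of the ligand, namely 4 runs of at least 3 G with loops of 1 to 7 bases on either strand. It occurred in 2 of 12 mitotic kinesins (KIF22 and KIF4A), in 9 of 19 other kinesins, and in 3 of the 6 called higher. The share over all genes with a window was 27.9%, and over the genes tested it was 41.3%. It was 46.3% over genes called higher and 39.5% over genes called lower, so 3 of 6 is near the general share. Of the remaining holders, KIF1B, KIF5C, KIF7 and KIF26A were not called, and KIF1A and KIF6 were not tested. The runs are in capitals in the stretches of KIF22 and of the 3 risen kinesins that hold the motif, as G on the gene's strand or as C where the other strand has G.
KIF22, chr16:29790698-29790721, plus strand: GGGagaGGGGGcGGGGcaccGGGG
KIF13A, chr6:17987656-17987677, minus strand: CCCCgcgcgCCCgCCCCtCCCC
KIF1C, chr17:4997927-4997949, plus strand: CCCCCgCCCCtcgctCCCgCCCC
KIF3C, chr2:25982575-25982595, minus strand: CCCCgCCCCCtgCCCCaCCCC

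Kinesin-1 provided the most abundant kinesin per length, KIF5B, the general motor for vesicles and mitochondria, at 717 normalized counts per kilobase in DMSO and 691 in PhenDC3. KIF5B had 4452, 4436 and 3749 normalized counts in DMSO and 3851, 4249 and 4075 in PhenDC3. These overlapped (log2 fold change -0.05, SE 0.07, adjusted p = 0.552, limma). Without DMSO replicate 3, its lowest library, it was called lower, at -0.13 (adjusted p = 0.0267), and KIF21A then at -0.26 (adjusted p = 0.00762). KIF5C ran from 303 to 376 in DMSO and from 332 to 357 in PhenDC3. KIF5A was below the filter.

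KIF1B, which moves mitochondria and synaptic vesicle precursors, ranged from 1010.2 to 1252 in DMSO and 1246 to 1279 in PhenDC3, and was not called (log2 fold change 0.16, adjusted p = 0.0823, limma). Without DMSO replicate 1 it was called higher, at 0.22 (adjusted p = 0.0226). KIF13B had no overlap between groups (325 to 350.3 against 363 to 397) yet missed the threshold (log2 fold change 0.18, adjusted p = 0.0763, limma). The ratio of KIF13A to KIF13B was 1.70, 1.83 and 1.66 in DMSO and 2.35, 2.47 and 2.41 in PhenDC3. KIF7, the Hedgehog kinesin of cilia tips, KIF9, KIF26A and KIF27 overlapped between the groups. KIF27 had 42.0, 45.6 and 24.8 normalized counts in DMSO and 37.9, 32.8 and 30.2 in PhenDC3. Its overlap rests on DMSO replicate 3. KIF7, with means of 36.7 in DMSO and 32.8 in PhenDC3, shares 11.8% of its exon bases with TICRR on the opposite strand. TICRR had means of 500.6 and 286.9, and its part in the KIF7 value was not tested. Below the filter, KIF1A reached at most 0.778 normalized counts with DMSO and ranged from 2.37 to 4.47 with PhenDC3, while KIF5A and KIF6 stayed below 5 in every library.

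Other kinesins, 3 in number, have names outside the rule. CENPE, the kinetochore motor that carries chromosomes to the metaphase plate, had 1107, 1277 and 936 normalized counts in DMSO and 579.9, 749 and 670.5 in PhenDC3. It fell, like the mitotic kinesins, to a ratio of 0.602 (log2 fold change -0.73, limma adjusted p = 3.21e-06). KIFC2 and KIFC3, minus-end transport motors, rose to ratios of 1.62 and 1.24 (limma adjusted p = 1.21e-06 and 0.000449).

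Partners and regulators of the mitotic kinesins fell in 20 of 20 cases, where 30.4% of all genes tested were called lower, with a median log2 fold change of -1.01. CCNB1, the mitotic cyclin, fell to a ratio of 0.400 (limma adjusted p = 1.04e-12), and BUB1, a checkpoint kinase, to 0.423. AURKB, the kinase of the chromosomal passenger complex that works with KIF20A, fell to 0.394, and TPX2, a spindle assembly factor that binds KIF11, to 0.491. PRC1, which recruits KIF4A to the central spindle, fell to 0.495 and RACGAP1, the partner of KIF23 in centralspindlin, to 0.567 (this pair was picked as direct partners with their values known). A CHR motif was in the window of 14 of the 16 of these genes that have one, and of 15.7% of all genes tested and 18.9% of genes called lower.

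Of 12 transcription factor genes known to act at mitotic promoters, 5 fell, 3 rose and 4 were not called, with a median log2 fold change of -0.06. Over all genes tested 30.4% were called lower and 29.2% higher, so the number that rose is near the general share. MYBL2, a partner of MuvB, fell to a ratio of 0.439 (limma adjusted p = 4.34e-11) and FOXM1, a forkhead factor of the same promoters, to 0.537 (limma adjusted p = 6.68e-10). The parts of the DREAM and MuvB complexes in this list, which does not hold all of them, did not move one way. TFDP1 at 0.742 and LIN9 at 0.721 fell, LIN37 at 1.44, RBBP4 at 1.23 and E2F4 at 1.13 rose, and LIN52 and LIN54 were not called. Without PhenDC3 replicate 1 the number that rose was 1.

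Kinesin light chains, cargo adaptors and regulators had 12 of 24 tested members higher, 5 lower and 7 not called, with a median log2 fold change of 0.28, beside 29.2% of all genes higher and 30.4% lower. PLEKHM2, which links lysosomes to kinesin-1, rose to a ratio of 2.22 (limma adjusted p = 1.3e-11). MAPK8IP3, an adaptor of axonal transport, rose to 2.14, and ZFYVE27, an endoplasmic reticulum protein that binds KIF5, to 2.00. TRAK2 and RHOT1, which join mitochondria to kinesin-1, fell to 0.660 and 0.674 (limma adjusted p = 3.35e-06 and 9.92e-06). Their paralogs TRAK1 and RHOT2, named after their values were seen, rose to 1.14 and 1.27 (limma adjusted p = 0.0314 and 0.000495). KIFBP, which inhibits several kinesins, fell to 0.816. SYBU, a syntaxin adaptor, was at 0.299 of its DMSO level, having passed the filter only through its DMSO libraries. KIFAP3, the third subunit of the KIF3 motor, was not called (ratio 0.874, limma adjusted p = 0.127).

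Genes of the opposite motor, dynein with dynactin, had 9 of 29 tested higher, 8 lower and 12 not called, with a median log2 fold change of 0.02. These counts are near the shares over all genes tested, 29.2% higher and 30.4% lower, and are no result about dynein as a group. DCTN5 rose to a ratio of 1.71 (limma adjusted p = 2.82e-09), and PAFAH1B1, the LIS1 regulator of dynein, to 1.59. NDE1, which brings LIS1 to dynein and is used in mitosis, fell to 0.484 (limma adjusted p = 1.9e-09). DCTN3 fell to 0.660 and ACTR1B to 0.651.

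The ciliary genes that kinesin-2 serves, listed with Hedgehog genes, had 12 of 23 lower, 4 higher and 7 not called, with a median log2 fold change of -0.38, beside 30.4% of all genes lower and 29.2% higher. GLI2, a Hedgehog transcription factor, fell to a ratio of 0.393 (limma adjusted p = 2.38e-08) and SUFU, which restrains GLI proteins, to 0.583. TTC21B at 0.613 and IFT172 at 0.554 fell as well. WDR35 at 1.52, IFT81 at 1.56, IFT140 at 1.49 and WDR19 at 1.31 rose.

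**Figure D5:**
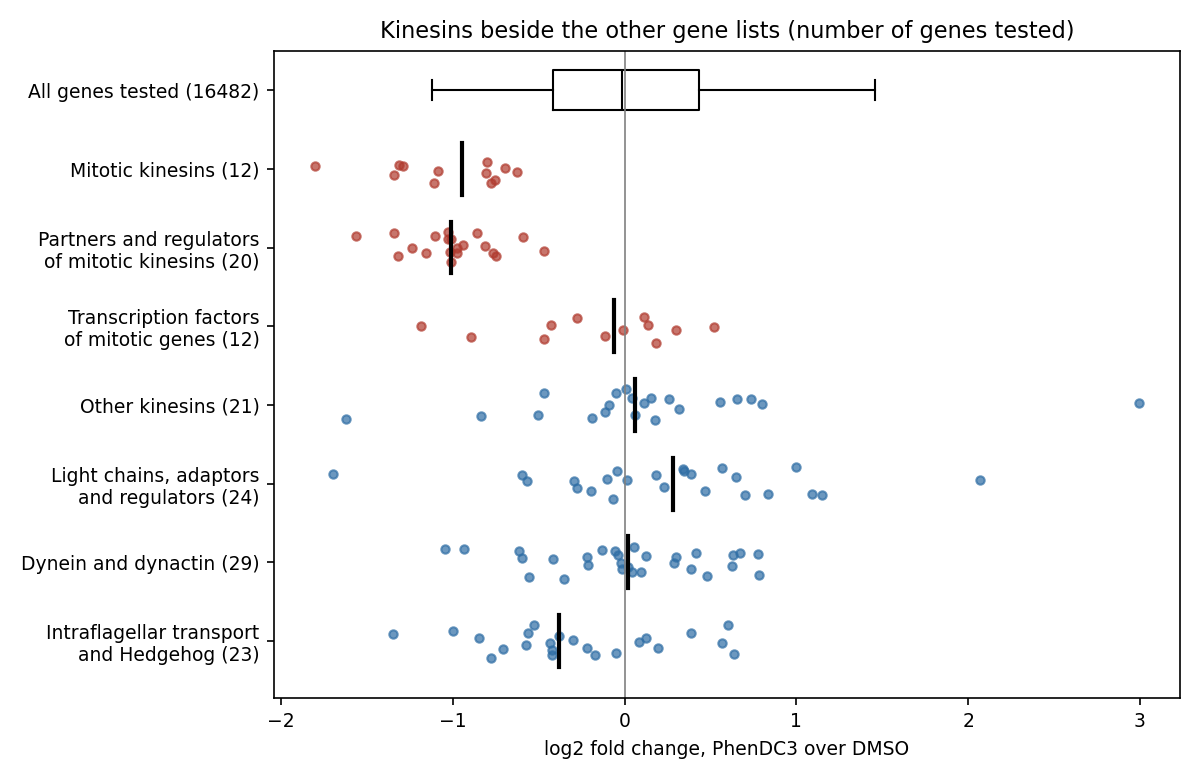
Log2 fold change of PhenDC3 over DMSO for every tested member of each list, 1 point per gene, with the median of each list as a black bar. For all genes tested a box gives the quartiles, with whiskers at the 5th and 95th percentiles. Mitotic kinesins and their partners lie wholly below 0, with medians of -0.95 and -1.01, and the transport lists spread on both sides.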

How the data were processed

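Gene expression was measured in 6 poly(A) RNA libraries. Per the submitters' processing notes, the build was hg19 and the tools included STAR 2.7 and TopHat2 2.0.11, featureCounts, DESeq2 1.18.1, CASAVA, and Cufflinks 2.2.1 with Cuffdiff, without roles. The annotation and the strand setting are not given in the sources at hand, so reads of genes that overlap on opposite strands may not be told apart. The deposited table holds a signal per library, read counts that the authors divided by a size factor. In every library 100% of values were whole multiples of 1 read (relative tolerance 1e-06). The authors' deposited log2 fold change and the authors' deposited adjusted p-value were used only as an alternative.

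The main test was limma 3.58.1 (R 4.3.3) with a variance trend on log2(normalized count + 1). Genes with a mean of 5 or more were tested, 16482 in all, of which 9818 (59.6%) were called at an adjusted p under 0.05. edgeR 4.0.16 on the recovered reads called 9437 of 14984 genes, and DESeq2 1.42.0 called 8418. The fold change is on the log2(value + 1) scale and is understated for low genes. The code was tested on simulated data. Exon lengths, overlaps and shared windows came from GENCODE on GRCh38, and promoters from RefSeq on GRCh38.p14, which matched 31 of the 36 members. The exact permutation test of 3 against 3 libraries cannot go below p = 0.1, so no single-value p is given.

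The members and lists were chosen with earlier results of these data known, and list counts are descriptions. Library values are given for every mitotic kinesin, for the other kinesins with the 6 largest called changes in each direction and for the most abundant ones, and each other list names up to 4 called genes a direction with the smallest adjusted p, except where stated and for 1 gene that is not reported here. Genes not in the table, such as KIF12, KIF19, KIF25 and KIF2B, were not analysed here. Alternatives were other pseudocounts, filters, scalings and tools, reads thinned to equal depth, a replicate block, and leaving out each library.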

Additional observations from a re-analysis of the deposited data

How the results depend on the processing

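All 12 mitotic kinesins were called lower, and 0 higher, under the main settings, the 12 alternatives and the 6 fits that left out 1 library, with log2 fold changes between -1.84 and -0.59. The count of other kinesins called lower was 4 in all of these except without DMSO replicate 3, where it was 6, and the count called higher was 6 to 8. KIF26B lost its call with DESeq2 and in the authors' deposited table (adjusted p = 0.0521 in both). Those alternatives are in effect the same fit, with 8418 genes called in each, so they are not separate checks. Of the 10 kinesins that were not called, 5 changed sign. KIF5C was at -0.031 with TMM scaling and -0.079 to 0.075 when 1 library was left out. KIF26A was at -0.041 on thinned reads and -0.055 to 0.15 when 1 library was left out. KIF21A ranged from -0.26 to 0.021, KIF27 from -0.38 to 0.048 and KIF9 from -0.031 to 0.088 in those fits. The count of promoter factors that rose was 1 to 3 when 1 library was left out.

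Same-numbered libraries did not deviate together (correlations of 0.00788, 0.0712 and 0.0270), so the numbers were not taken to pair them. With a replicate block, 12 mitotic kinesins were lower, 4 other kinesins lower and 8 higher, KIF1B being added (adjusted p = 0.0487, limma), and 10155 genes were called in all. Over all alternatives and left-out libraries, 8418 to 10454 genes were called. Depth limits KIF17, KIF26B, KIF4B, KIF7 and KIF27 and the 3 kinesins under the filter. KIF4B, KIF7 and KIF27 had 69, 76 and 77 reads in all PhenDC3 libraries, and KIF26B had 99.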

Other observations

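Transcripts were searched for the same motif of 4 G runs on the sense strand, using the longest coding transcript of each gene. It was in 3 of 12 mitotic kinesins, in 7 of 24 other kinesins and in 29.2% of the 12256 coding genes tested. In the first 200 bases it was in 1 of 12, in 4 of 24 and in 8.77%. Median GC content was 44.3% in mitotic kinesin transcripts, 49.0% in those of the other kinesins and 48.6% over all these genes. Antisense or neighbouring genes overlap several members, among them KIF9 with KIF9-AS1 over 870 bases and KIFC1 with RPL12P1 over 12.7% of its exon bases. KIF9-AS1 had means of 17.3 in DMSO and 24.8 in PhenDC3, beside 59.9 and 61.9 for KIF9. RPL12P1 had 0.947 and 1.29, beside 1268 and 518 for KIFC1.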
